A study of Mus musculus with 6 samples.

Results

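The genes described here are 10 members of the NF-κB system: the subunit genes Nfkb1, Nfkb2 and Relb, and the inhibitor and feedback genes Nfkbia, Nfkbie, Nfkbiz, Bcl3, Tnfaip3, Tnip1 and Zc3h12a. They were taken from a list of symbols that sets no limit on any value, and all 10 are among the 23951 genes of the expression table. All 10 also averaged 0.1 FPKM or more, the limit for being tested, as did 17021 genes in all. FPKM counts fragments per kilobase of a transcript for every 1000000 fragments mapped, so levels can be compared between genes.

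Whole-skin RNA was sequenced from 3 JunBΔep and 3 control animals, in a study that asked whether the inflamed skin of mice lacking the AP-1 subunit JunB in the epidermis resembles atopic dermatitis in its transcripts. The study describes the JunBΔep skin as lesional, and the labels give the tissue as skin, so genotype and lesion cannot be told apart. JunBΔep mice (labelled JunB dep) carry a floxed Junb gene that is deleted by a Cre driven from the keratin 5 promoter, that is, in basal keratinocytes and other K5-expressing cells, and the controls are JunB +/+. All mice are C57Bl/6, 6 to 7 months old. The mice are called control replicates 0, 1 and 2 and JunBΔep replicates 0, 1 and 2, after the numbers in the labels.

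NF-κB is a family of dimeric transcription factors held in the cytoplasm by IκB proteins. Signals from Toll-like, IL-1 and TNF receptors lead to the destruction of IκB, and the freed dimers enter the nucleus and bind κB sites. Many of the genes switched on in this way are themselves brakes on the pathway, among them the genes for IκBα and A20, and others are nuclear IκB proteins that adjust which targets are transcribed. In skin the pathway drives the output of cytokines, chemokines and antimicrobial proteins by keratinocytes and immune cells.

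Sequences around the κB motif near the transcript starts are shown because this motif is the sequence that NF-κB dimers recognise. Windows from 250 bases before to 50 bases after the start were available from RefSeq (GRCm38.p6) for 7 of the 10 genes, in 10 windows, and each window was found exactly once in mm9, the build of the expression data. Searched on both strands, the κB motif matched in 8 of these 10 windows, belonging to 6 genes, and in 4.51% of all 32851 RefSeq windows. The 10 windows are not all separate, since some windows of Nfkb2 overlap and count the same match. The matches are at 10 distinct positions, of which 8 are shown, each in 30 bases on the strand of the gene, 5′ to 3′, with the match in capitals.
Bcl3: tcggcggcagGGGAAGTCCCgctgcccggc
Nfkb2 upper site: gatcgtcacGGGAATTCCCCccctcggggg
Nfkb2 lower site: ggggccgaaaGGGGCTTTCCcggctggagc
Nfkbia: tgactggcttGGAAATTCCCcgcgcctgac
Nfkbie: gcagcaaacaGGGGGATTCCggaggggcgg
Tnfaip3 upper site: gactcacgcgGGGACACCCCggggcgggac
Tnfaip3 lower site: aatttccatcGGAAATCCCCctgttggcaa
Tnip1: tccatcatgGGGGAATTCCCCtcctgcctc

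The Nfkbia match lies at positions -29 to -20 from the transcript start (chr12:56593654-56593663 in mm9), upstream of the gene. The Nfkb2 matches at -39 to -29 (chr19:46379188-46379198) and at -11 to -2 (chr19:46379216-46379225), the Nfkbie match at -106 to -97 (chr17:45692543-45692552) and the Tnip1 match at -58 to -47 (chr11:54776489-54776500) are upstream of their genes too. Matches in the Nfkb2 and Tnip1 sequences that are longer than 10 letters are overlapping matches run together. The positions not shown also belong to Nfkb2, in an intron (chr19:46379949-46379958) and in a UTR exon (chr19:46380195-46380204). The Bcl3 match at 3 to 12 (chr7:20408093-20408102) is in an exon that holds UTR. Both Tnfaip3 matches, at -125 to -116 (chr10:18735332-18735341) and at -12 to -3 (chr10:18735219-18735228), are intronic in the mm9 annotation, which has a longer transcript of the gene. Zc3h12a had a window with no match, and Nfkbiz, Relb and Nfkb1 had no window in the table. The AP-1 motif TGANTCA, searched on both strands, was found in 3 of the 10 windows (1 each of Nfkb2, Nfkbie and Tnfaip3), against 7.81% of all windows, and 0 of these AP-1 matches overlapped a κB match. A match of letters is a description and not evidence of binding.

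**Figure D1:**
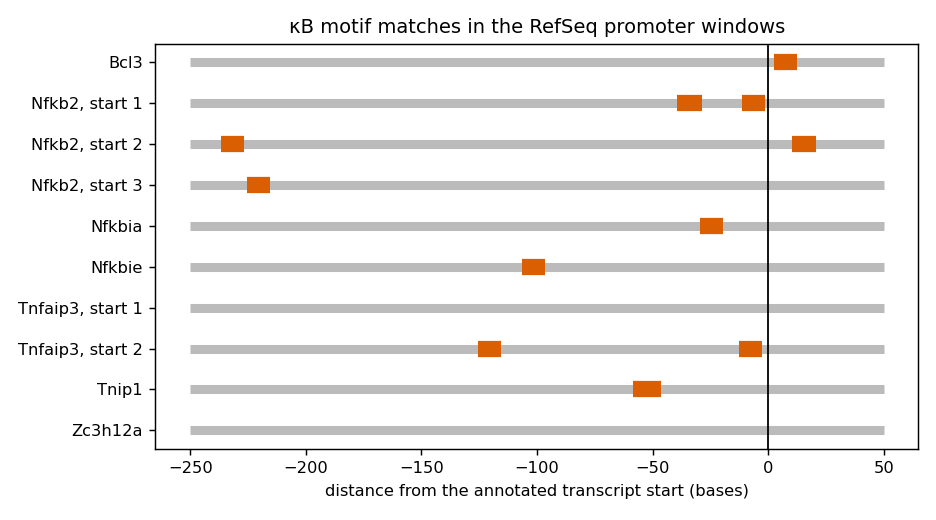
Positions of κB motif matches (orange) in the 10 promoter windows (grey, from 250 bases before to 50 bases after the transcript start, in bases on the horizontal axis), 1 line per annotated start. Matches lie within the window of 6 genes, and Zc3h12a and the first Tnfaip3 start have none.

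Before the members, the deleted gene was checked. Junb was at 59.3, 72.4 and 56.9 FPKM among controls, 42.8 FPKM in JunBΔep replicate 1 and 28.05 FPKM in replicate 2, whereas the library labelled JunBΔep replicate 0 had 129.6 FPKM. The last value goes against the label, and the other 2 JunBΔep values are below every control. Whole skin also holds cells in which keratin 5 Cre is not active. In the library labelled JunBΔep replicate 0, skeletal muscle markers summed to 1509 FPKM, near replicates 1 and 2 (1410 and 3391 FPKM). The controls had 14640 to 18780 FPKM. Mucosal epithelium markers, at 3853 FPKM, set that library apart from every other (39.4 to 104.5 FPKM). Whether its label is right was not tested. Fold changes of the 10 genes, and of the core pathway, feedback, κB target and IκBζ-dependent lists, are therefore given with all 6 mice and without the library labelled JunBΔep replicate 0. FPKM values summed to 481078 to 630363 per library, 18418 to 18873 genes were above 0 in a library, and the number of reads is unknown. Of the keratinocyte markers, 10 of 10 were found, and their summed level ranged from 7240 to 11620 FPKM for controls and from 7337 to 12980 FPKM for JunBΔep mice, and Krt14 is listed at 0 in the library labelled JunBΔep replicate 0.

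In the comparison of JunBΔep with control skin, none of the 10 genes passed the test. Zc3h12a, Nfkbiz, Bcl3, Tnfaip3 and Nfkbia had the largest positive fold changes and Relb, Tnip1 and Nfkbie had fold changes near 0. The library labelled JunBΔep replicate 0 held the highest level for 9 of the 10 genes, and without it the log2 fold change went from 1.17 to 0.11 for Bcl3, from 1.51 to 0.73 for Zc3h12a, from 1.29 to 0.66 for Nfkbiz, from 0.87 to 0.42 for Tnfaip3, from 0.77 to 0.54 for Nfkbia and from -0.07 to -0.64 for Nfkbie. Nfkbiz, Tnfaip3 and Zc3h12a were above every control in all 3 JunBΔep libraries, against 5.62% of all tested genes. For Tnfaip3 the margin in JunBΔep replicate 1 was small, at 6.65 FPKM against 6.617 FPKM in the highest control.

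Called at an adjusted p below 0.05 (limma, Benjamini-Hochberg over all genes tested), 0 of the 10 genes passed, and 0 had an unadjusted p below 0.05. Over all tested genes 1.38% passed the adjusted threshold, all of them lower in JunBΔep, and 7.56% had an unadjusted p below 0.05. Without the library labelled JunBΔep replicate 0, limma called 135 genes (0.798% of 16912 tested), of which 10 were higher, and 0 of the 10 members. The adjusted p of the 10 genes lay between 0.666 and 0.969 (limma). The median log2 fold change of the 10 genes was 0.63, with 8 positive and 2 negative, against 0.03 over all tested genes. Without the library labelled JunBΔep replicate 0 the median was 0.12, with 6 positive and 4 negative, against 0.03 over all tested genes, and 2 of the 10 genes had an unadjusted p below 0.05 (8.07% of all tested genes). In bulk tissue, more or fewer cells of a type and more or less RNA per cell cannot be told apart.

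Of the 10 genes, 3 were higher in JunBΔep with no overlap between the groups, against 5.62% of all tested genes. With 3 mice against 3, each of these 3 genes reached p = 0.1 in an exact two-sided permutation test, the smallest value that this design allows. In the library labelled JunBΔep replicate 0, 8 of the 10 were at least 2-fold above the control mean (13.8% of all tested genes), and 9 were at their highest of the 6 libraries (29.7%). The counts were 0 in JunBΔep replicate 1 (8.10%) and 1, Nfkbiz, in JunBΔep replicate 2 (4.49%). After the libraries were rescaled to a common sum, 5 genes were higher with no overlap (7.26% of all tested genes), 5 were at least 2-fold above the control mean in the library labelled JunBΔep replicate 0 (10.3%), and 3 were in JunBΔep replicate 2 (5.37%). With the doubted library left aside, 3 genes had both remaining JunBΔep values above every control (11.1% of tested genes) and 1, Nfkbie, had both below every control (13.0%).

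**Figure D2:**
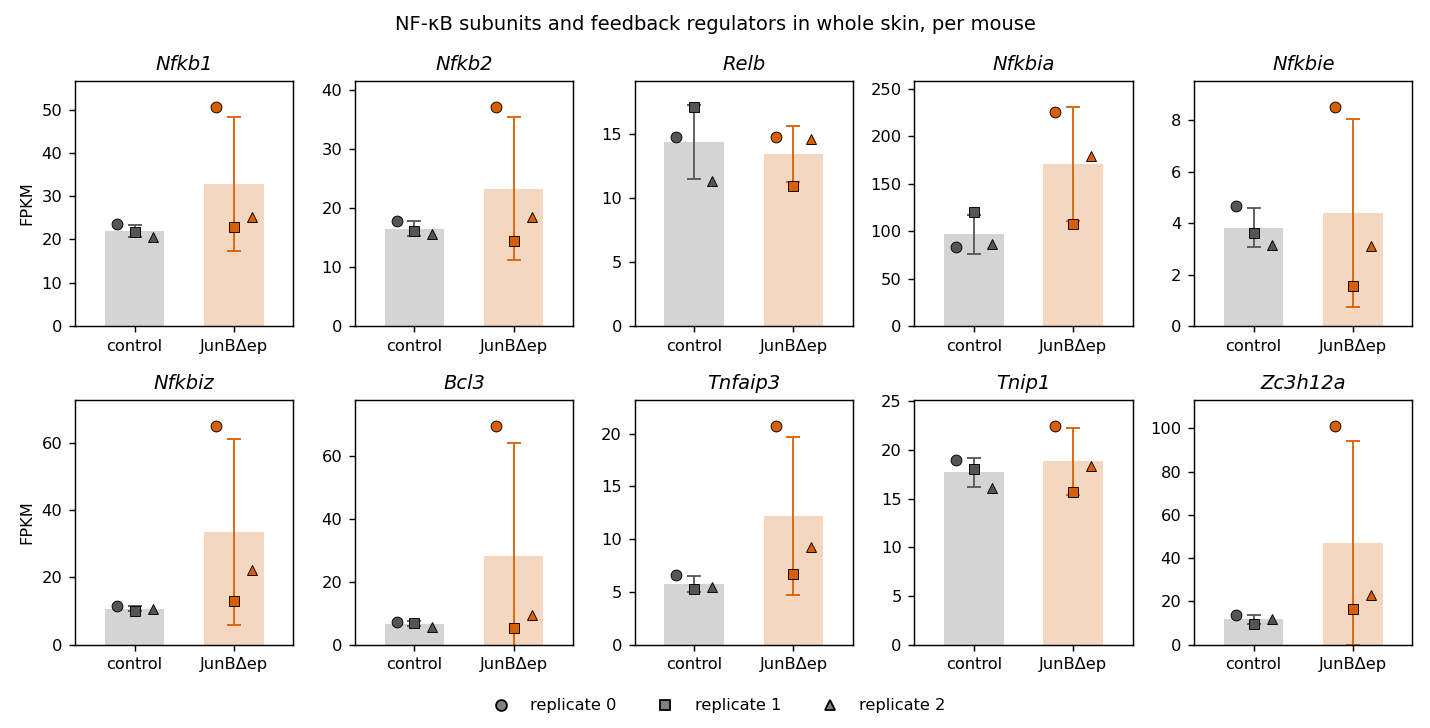
FPKM (vertical axes, linear, from 0) of each of the 10 genes in each mouse. Points are mice, with the shape giving the replicate number; bars are group means and error bars are SD (n = 3 per group), drawn down to 0 at the lowest. The JunBΔep replicate 0 point lies far above the others for Bcl3, Zc3h12a and Nfkbiz, at 69.4, 101 and 65.0 FPKM.

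The subunits were considered first. Nfkb1 (chr3:135247619-135354511 in mm9, minus strand) encodes p105, the precursor of the p50 subunit. It was at 23.5, 21.7 and 20.6 FPKM in the controls and at 50.55, 22.8 and 25.2 FPKM in the JunBΔep mice, replicates 0, 1 and 2. Only the first JunBΔep value was far from the controls, whose range was 20.6 to 23.5 FPKM, and replicate 1 was inside that range. The log2 fold change was 0.48 ± 0.32 (SE; limma adjusted p = 0.722), and 0.12 ± 0.14 without the library labelled JunBΔep replicate 0.

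Nfkb2 (chr19:46379227-46386580, plus strand) encodes p100, the precursor of p52, the subunit of the non-canonical branch. Its levels were 17.9, 16.1 and 15.5 FPKM in the controls and 37.1, 14.35 and 18.5 FPKM in JunBΔep. The groups overlapped, since replicate 1 was below every control and the other 2 above. The log2 fold change of 0.37 ± 0.35 (SE; limma adjusted p = 0.735) became -0.02 without the library labelled JunBΔep replicate 0. Psd lies on the opposite strand within the Nfkb2 locus, and no source used here states the strand setting of the quantification.

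Relb (chr7:20191566-20214787, minus strand) encodes the usual partner of p52. Its values of 14.8, 17.1 and 11.3 FPKM in the controls and 14.8, 10.9 and 14.6 FPKM in JunBΔep overlapped, although JunBΔep replicate 1 was below every control, and control replicate 1 was the highest of the 6. Relb was the 1 member that was not highest in the library labelled JunBΔep replicate 0, where it stood at 1.03 times the control mean. Its log2 fold change was -0.09, with a 95% interval of -0.63 to 0.45 (limma adjusted p = 0.899), and -0.16 ± 0.24 (SE) with that library left out.

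The classical inhibitors came next. Nfkbia (chr12:56590398-56593634, minus strand) encodes IκBα, the inhibitor that is destroyed and then resynthesised when the pathway fires. It was the most abundant member, at 83.3, 120.4 and 86.8 FPKM in the controls and at 226, 107 and 179.5 FPKM in the JunBΔep mice, replicates 0, 1 and 2. JunBΔep replicates 0 and 2 were above all controls, while replicate 1 was within their range. The log2 fold change of 0.77 had a 95% interval of -0.0037 to 1.55 (limma adjusted p = 0.666, unadjusted p = 0.0508), and was 0.54 ± 0.30 (SE) without the library labelled JunBΔep replicate 0.

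Nfkbie (chr17:45692665-45700118, plus strand) encodes IκBε, which is slower to return after a stimulus. It was the least abundant member, at 4.65, 3.63 and 3.16 FPKM in the controls and at 8.50, 1.56 and 3.13 FPKM in JunBΔep. JunBΔep mice lay on both sides of the controls: replicate 0 was 2.23 times the control mean and replicate 1 was 0.408 times. JunBΔep replicate 2, at 3.127 FPKM, was below the lowest control, at 3.162 FPKM, by a small margin. The log2 fold change was -0.07 ± 0.55 (SE; limma adjusted p = 0.969), and -0.64 ± 0.32 without the library labelled JunBΔep replicate 0.

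Nfkbiz (chr16:55811488-55839012, minus strand) encodes IκBζ, a nuclear IκB protein required for part of the IL-17 and IL-36 response of keratinocytes. Its controls were tight, at 11.5, 9.895 and 10.5 FPKM (SD 0.805, n = 3). The JunBΔep mice were at 65.0, 13.05 and 22.2 FPKM, which is 6.10, 1.23 and 2.09 times the control mean. No JunBΔep value overlapped a control value, although replicate 1 was only a little above the highest control. The log2 fold change was 1.29 ± 0.56 (SE; limma adjusted p = 0.681), and 0.66 ± 0.26 without the library labelled JunBΔep replicate 0 (limma adjusted p = 0.618).

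Bcl3 (chr7:20393811-20408119, minus strand) encodes the nuclear IκB protein that binds p50 and p52 homodimers. It was at 7.19, 6.92 and 5.72 FPKM in the controls and at 69.4, 5.32 and 9.49 FPKM in JunBΔep. The library labelled JunBΔep replicate 0 was 10.5 times the control mean, the largest ratio of any member in any library, whereas replicate 1 was below every control. The groups therefore overlapped, and the log2 fold change of 1.17 had an SE of 0.90 (limma adjusted p = 0.722) and was 0.11 ± 0.28 without that library. The transcripts Gm16175 and Gm16174 lie on the opposite strand at this locus.

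Tnfaip3 and Tnip1 encode A20, an enzyme that edits ubiquitin chains on signalling proteins of the pathway, and ABIN-1, which binds A20 and ubiquitin. Tnfaip3 (chr10:18720716-18735463, minus strand) was at 6.62, 5.265 and 5.42 FPKM in the controls and at 20.7, 6.65 and 9.25 FPKM in JunBΔep. JunBΔep replicate 1, at 6.65 FPKM, cleared the highest control, at 6.617 FPKM, by less than the control SD of 0.740 FPKM. The log2 fold change was 0.87 ± 0.42 (SE; limma adjusted p = 0.719), and 0.42 ± 0.22 without the library labelled JunBΔep replicate 0. Tnip1 (chr11:54724289-54776419, minus strand) was at 18.96, 18 and 16.1 FPKM in the controls and at 22.5, 15.7 and 18.3 FPKM in JunBΔep. Its log2 fold change of 0.08 had a 95% interval of -0.37 to 0.53 (limma adjusted p = 0.892), and with the library labelled JunBΔep replicate 0 left out the value was -0.06 ± 0.15 (SE).

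Zc3h12a (chr4:124795667-124805084, minus strand) encodes regnase-1, a ribonuclease that degrades the mRNA of Il6, Nfkbiz and other inflammatory genes. It was at 13.6, 9.59 and 11.7 FPKM in the controls and at 101, 16.4 and 22.9 FPKM in JunBΔep. All 3 JunBΔep libraries were above all 3 controls. They were at 8.69 times the control mean in the library labelled JunBΔep replicate 0, and at 1.41 and 1.97 times in replicates 1 and 2. Its log2 fold change of 1.51 ± 0.67 (SE) was the largest of the 10 genes (limma adjusted p = 0.689). Without the library labelled JunBΔep replicate 0 it was 0.73 ± 0.23, again the largest, with a limma adjusted p of 0.466.

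**Figure D3:**
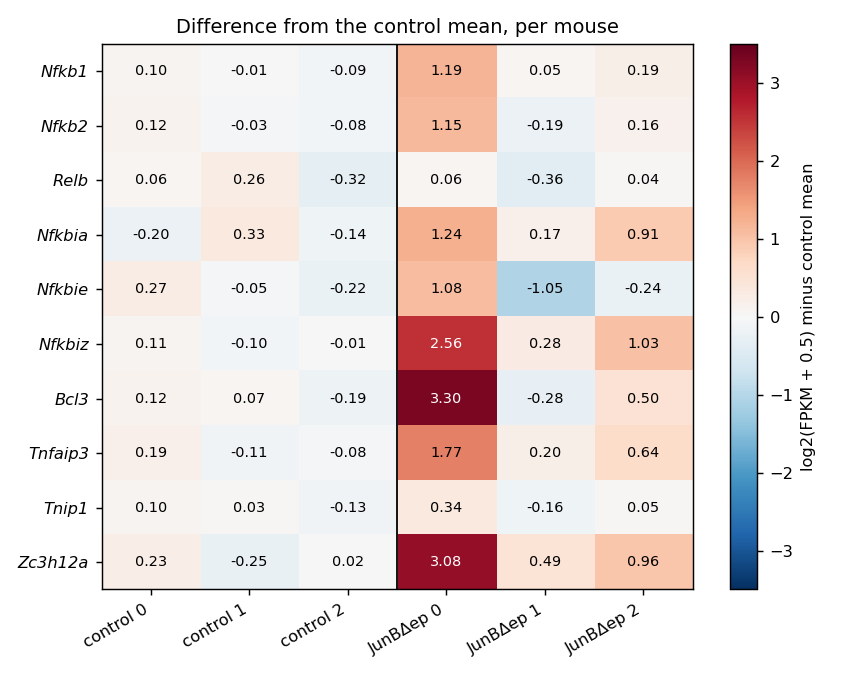
Each cell gives log2(FPKM + 0.5) of a gene (rows) in a mouse (columns) minus the mean of the 3 controls, in log2 units, with red above and blue below the control mean. The JunBΔep 0 column holds the largest values, up to 3.30 for Bcl3, and the JunBΔep 2 value exceeds the JunBΔep 1 value in 10 of 10 rows. For that last count the share of all tested genes was not computed.

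Except for Relb, the 3 JunBΔep mice differed from each other more than the controls did. Coefficients of variation of the 10 genes were 6.67% to 21.2% among controls and 16.2% to 128% among JunBΔep mice. With only JunBΔep replicates 1 and 2 the JunBΔep range was 7.00% to 47.4%, with Bcl3 at 39.9% in place of 128%. Relative to the control mean, the median log2 difference over the 10 genes was 1.21 for the library labelled JunBΔep replicate 0, -0.05 for JunBΔep replicate 1 and 0.35 for JunBΔep replicate 2, against -0.02, 0.00 and 0.00 over all tested genes. JunBΔep replicate 2 exceeded replicate 1 for 10 of 10 genes. The share of all tested genes that did so was not computed, so this count cannot be told from a difference between whole libraries. The sample titles carry 2 number series, and the library labelled JunBΔep replicate 0 shares series 23 with control replicates 0 and 1, whereas the other 2 JunBΔep mice share series 27 with control replicate 2. The difference between genotypes was positive for 9 of the 10 genes within series 23, with Relb at -0.10, and for 9 of 10 within series 27, with Nfkbie at -0.42. The share over all tested genes was not computed. Within series 23 the only JunBΔep library is the one labelled replicate 0, and within series 27 the only control is replicate 2. The counts therefore do not show a replicated rise. Against all 3 controls, JunBΔep replicates 1 and 2 gave 6 positive and 4 negative fold changes. What the series numbers mean is not given in the labels.

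**Figure D4:**
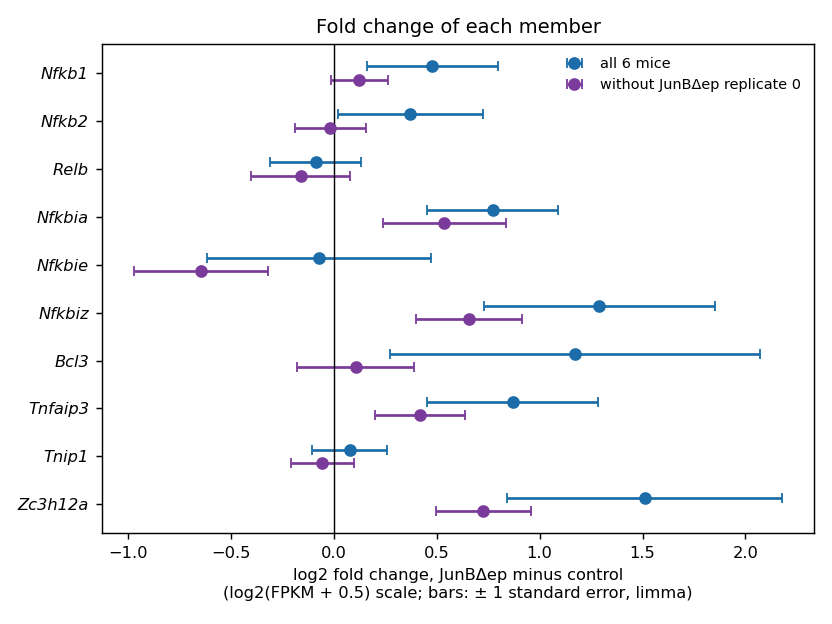
Log2 fold change (JunBΔep minus control, log2(FPKM + 0.5) scale, horizontal axis) of each gene, with bars of 1 standard error from limma, for all 6 mice (blue) and without JunBΔep replicate 0 (purple). Without that library Bcl3 moves from 1.17 to 0.11, Zc3h12a from 1.51 to 0.73, Nfkbiz from 1.29 to 0.66 and Nfkbia from 0.77 to 0.54.

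Among the controls, the order of levels was Nfkbia at 96.8 FPKM, Nfkb1 at 21.9, Tnip1 at 17.7, Nfkb2 at 16.5, Relb at 14.4, Zc3h12a at 11.6, Nfkbiz at 10.65, Bcl3 at 6.61, Tnfaip3 at 5.77 and Nfkbie at 3.81 FPKM (means, n = 3). Neighbours from Tnip1 to Nfkbiz overlapped one with the next, as did Bcl3 with Tnfaip3, so those pairs are not ordered beyond their spread. In the library labelled JunBΔep replicate 0 Nfkbia stayed first, and Zc3h12a, Bcl3 and Nfkbiz took ranks 2, 3 and 4.

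The profile of Nfkbiz over the 6 mice was compared with every tested gene outside the 10, as the root mean square difference of log2 values centred on the control mean. The 5 nearest were Nod2 (0.119), Slc10a6 (0.126), Eno1 (0.167), Dbil5 (0.177) and Ptges (0.197). Nod2, which encodes an intracellular sensor of bacterial peptidoglycan, was at 3.30, 2.61 and 2.64 FPKM in the controls and at 22.4, 3.62 and 7.05 FPKM in JunBΔep. Ptges, which encodes a prostaglandin E synthase, was at 14.3, 16.6 and 12.9 FPKM in the controls and at 110.3, 17.1 and 31.2 FPKM in JunBΔep. Of the other members Zc3h12a was nearest to Nfkbiz (0.245), followed by Tnfaip3 (0.363) and Bcl3 (0.452), and Relb was farthest (1.145). This order rests in part on the library labelled JunBΔep replicate 0: over the other 5 mice Zc3h12a (0.132) and Tnfaip3 (0.184) were again nearest, Nfkbia (0.254) came before Bcl3 (0.365), and Nfkbie (0.833) rather than Relb (0.569) was farthest. Over those 5 mice Nod2 was the nearest of the 5 genes, at rank 8 among genes outside the 10, and Dbil5 was at rank 62.

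The rest of the pathway was described from fixed lists. Of 26 further genes of subunits, the IκB kinase complex, upstream kinases and adaptors, and the linear ubiquitin ligase, 0 were called, 17 had positive and 9 negative fold changes, and the median log2 fold change was 0.09, or 0.05 without the library labelled JunBΔep replicate 0 (15 positive, 11 negative, 0 called). Rela, which encodes p65, the main activating subunit, was at 29.1, 31.5 and 26.9 FPKM in the controls and at 45.0, 31.8 and 36.1 FPKM in JunBΔep, so its groups did not overlap either (log2 fold change 0.35 ± 0.18 SE, limma adjusted p = 0.722, and 0.21 ± 0.14 SE without that library). JunBΔep replicate 1, at 31.77 FPKM, cleared the highest control, at 31.54 FPKM, by less than the control SD of 2.31 FPKM. Of the 26 genes, 2 (Rela and Tab3) were higher with no overlap, against 5.62% of all tested genes. Rel, the c-Rel subunit gene of lymphoid and myeloid cells, was at 0.739, 0.513 and 0.385 FPKM in the controls and at 3.54, 0.663 and 0.795 FPKM in JunBΔep. Myd88, the adaptor of Toll-like and IL-1 receptors, was at 24.5, 23.7 and 21.3 FPKM in the controls and at 82.1, 22.4 and 30.1 FPKM in JunBΔep.

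The IκB kinase genes Chuk, Ikbkb and Ikbkg had log2 fold changes of 0.10, 0.08 and 0.03, and of 0.06, 0.08 and 0.05 without the library labelled JunBΔep replicate 0. Map3k14, which encodes the NIK kinase of the non-canonical branch, was at 5.81, 3.395 and 4.57 FPKM in the controls and at 9.26, 3.54 and 5.08 FPKM in JunBΔep. Rel, Myd88 and Map3k14 each peaked in the library labelled JunBΔep replicate 0. Of the other 2 JunBΔep mice, replicate 2 was above every control for Rel and Myd88.

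Of 24 further feedback genes, 23 were tested and Zc3h12b was below the filter. None was called, 14 fold changes were positive and 9 negative, and the median was 0.06. Leaving out the library labelled JunBΔep replicate 0 turned the median to -0.07, with 8 positive, 15 negative and 0 called. Nfkbid, the gene of the nuclear protein IκBNS, was at 1.96, 1.82 and 1.33 FPKM in the controls and at 15.4, 2.10 and 1.89 FPKM in JunBΔep, with a log2 fold change of 1.08, or 0.19 without the library labelled JunBΔep replicate 0. Nfkbib, the IκBβ gene, had a log2 fold change of -0.03, or -0.13 without it. Birc3 (an inhibitor of apoptosis that ubiquitinates pathway proteins), Irak3 (an inhibitory IRAK protein) and Zc3h12c (a relative of regnase-1) stood at 3.11, 3.27 and 3.615 times the control mean in the library labelled JunBΔep replicate 0 and at 0.624, 0.987 and 0.942 times in JunBΔep replicate 1. In JunBΔep replicate 2 they were at 1.03, 1.36 and 1.504 times, and Birc3 was below every control in replicate 1.

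Zfp36, which encodes the mRNA-destabilising protein tristetraprolin, was at 57.5, 108.6 and 47.3 FPKM in the controls and at 156, 54.8 and 73.1 FPKM in JunBΔep. Cyld, a deubiquitinase gene that restrains the pathway, was at 5.79, 5.48 and 5.335 FPKM in the controls. It was lower in all 3 JunBΔep libraries: 3.68 FPKM in the library labelled JunBΔep replicate 0, then 4.06 and 5.18 FPKM. Its log2 fold change was -0.34 ± 0.20 (SE, limma adjusted p = 0.722), and -0.25 ± 0.19 without the library labelled JunBΔep replicate 0. Of the 23 feedback genes tested, 2 were lower with no overlap, as were 1559 of all 17021 tested genes. Traf1, an adaptor of TNF receptors, had a log2 fold change of 0.53 (0.39 without that library), Tnip2 of 0.17 (0.10), Tnip3 of -0.02 (-0.10) and Irak2 of 0.0021 (-0.19). None of these genes passed the test.

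Known κB targets differed widely between the JunBΔep mice. Of 20, 0 were called and 1 had an unadjusted p below 0.05 (Ccl20). Of the 20, 3 passed the filter only through the library labelled JunBΔep replicate 0, so the direction of these 3 was set by the filter, and the other 17 are summarised. With all 6 mice 13 of them had positive and 4 negative fold changes, with a median of 1.29. Without that library 4 were positive and 13 negative, with a median of -0.16 and 0 called. Their median difference from the control mean was 3.24 for the library labelled JunBΔep replicate 0, -0.35 for JunBΔep replicate 1 and -0.02 for JunBΔep replicate 2, and 14 of 17 were at least 2-fold above the control mean in the first of these. Il6 was at 0.148, 0.266 and 0.175 FPKM in the controls and at 31.8, 0.0927 and 0.132 FPKM in JunBΔep. The chemokine gene Cxcl1 was at 3.69, 2.13 and 2.56 FPKM in the controls and at 221, 0.722 and 1.84 FPKM in JunBΔep. JunBΔep replicates 1 and 2 were below every control for both genes. By contrast, 2 of the 17, Cxcl2 and Ier3, were above every control in all 3 JunBΔep libraries (5.62% of all tested genes). Cxcl2 was at 0.149, 0.089 and 0.078 FPKM in the controls and at 243.9, 0.279 and 0.926 FPKM in JunBΔep. Ier3 was at 20.7, 32.25 and 23.7 FPKM in the controls and at 241, 37.0 and 33.6 FPKM in JunBΔep.

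Tnf was at 1.41, 2.04 and 1.075 FPKM in the controls and at 12.7, 1.54 and 1.39 FPKM in JunBΔep. Icam1, an adhesion molecule gene, was at 13.1, 12.03 and 9.80 FPKM in the controls and at 34.1, 8.96 and 13.2 FPKM in JunBΔep. Sod2, a mitochondrial antioxidant gene, was at 32.9, 39.3 and 34.4 FPKM in the controls and at 52.0, 22.9 and 28.1 FPKM in JunBΔep (log2 fold change -0.13 ± 0.31 SE, and -0.47 ± 0.16 without the library labelled JunBΔep replicate 0, limma adjusted p = 0.526). JunBΔep replicate 1 was below every control for both genes, as was replicate 2 for Sod2. Of 14 genes reported to depend on IκBζ, 0 were called and 2 had an unadjusted p below 0.05 (Il36a and Ccl20), and 5 passed the filter only through the library labelled JunBΔep replicate 0. Of the other 9, 8 had positive fold changes with all 6 mice and the median was 1.64; without that library 4 were positive and 5 negative, the median was -0.31 and 0 were called. Their median difference from the control mean was 6.10 for the library labelled JunBΔep replicate 0, -0.51 for replicate 1 and 0.90 for replicate 2. Of the 9, 3 (Il36a, Cxcl2 and Il1f9) were above every control in all 3 JunBΔep libraries, against 5.62% of all tested genes. Il36a was at 1.62, 0.464 and 0.910 FPKM in the controls and at 133.7, 5.43 and 10.7 FPKM in JunBΔep. Without the library labelled JunBΔep replicate 0, 2 of the 9 had an unadjusted p below 0.05 (limma), both higher. The share over all tested genes was 8.07%, in either direction. Lcn2, the gene of the iron-binding protein lipocalin 2, was at 222, 2.82 and 14.4 FPKM in the controls and at 1044, 4.06 and 69.7 FPKM in JunBΔep, so control replicate 0 was above 2 of the 3 JunBΔep mice. S100a9 had the 1 negative fold change of the list and is listed at 0 in the library labelled JunBΔep replicate 0, where S100a8, the gene of its partner subunit in calprotectin, was at 24460 FPKM.

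**Figure D5:**
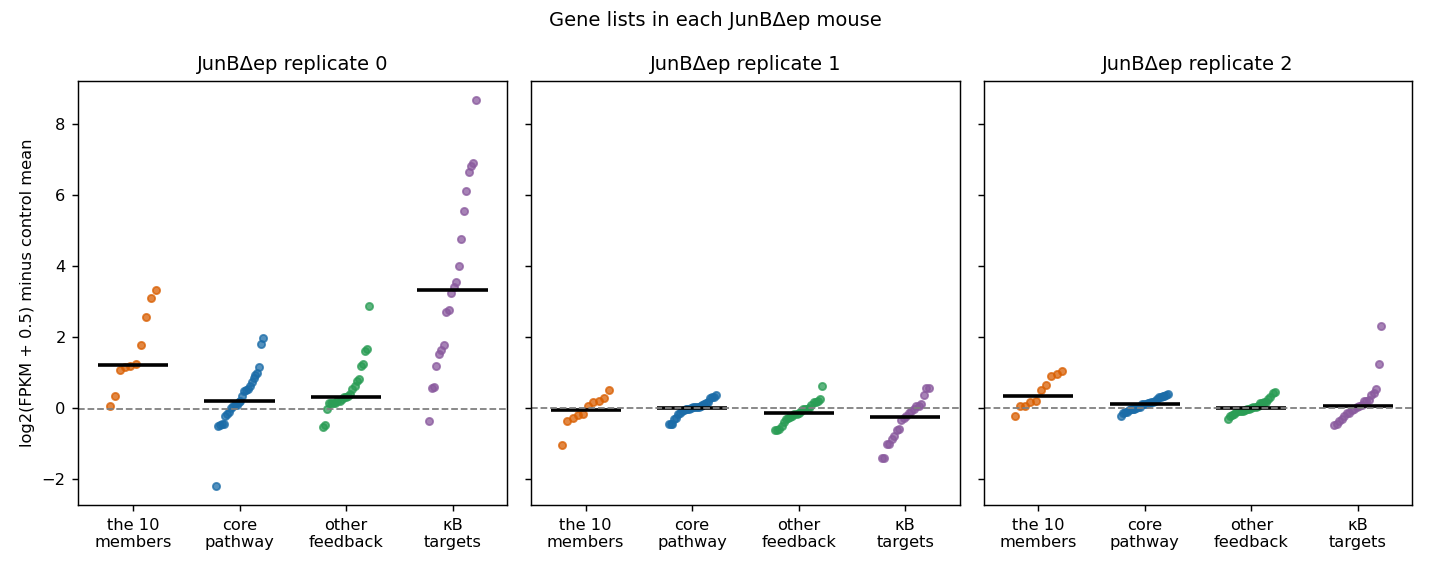
Difference of each gene from the control mean (log2(FPKM + 0.5), vertical axis) in each JunBΔep mouse, for the 10 members, 26 core pathway genes, 23 other feedback genes and 20 κB targets, 3 of which passed the filter only through replicate 0. Points are genes, black lines are list medians and the dashed line is the median of all tested genes; the members' median is 1.21 in replicate 0, -0.05 in replicate 1 and 0.35 in replicate 2.

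Markers of other cells differed between the mice beside these values. The mucosal epithelium markers (7 of 7 found) summed to 47.65 to 103 FPKM in the controls, 39.4 and 104.5 FPKM in JunBΔep replicates 2 and 1, and 3853 FPKM in the library labelled JunBΔep replicate 0. Neutrophil markers (9 of 10 found) summed to 5.97 to 398.5 FPKM in the controls and to 6.21 to 621.5 FPKM in JunBΔep, highest in the library labelled JunBΔep replicate 0. There 6 of the 9 were at least 2-fold above the control mean, and Camp, Ngp and Ltf were at least 2-fold below it. The sums therefore do not describe these markers as a set. Skeletal muscle markers (10 of 10 found) summed to 14640 to 18780 FPKM in the controls and 1410 to 3391 FPKM in JunBΔep, and 8 of 10 were called lower, with a median log2 fold change of -3.07. Without the library labelled JunBΔep replicate 0 the muscle median was -2.88 and 3 of 10 were called, and 10 of 10 had an unadjusted p below 0.05 both with and without it (limma). No gene of the whole table was called with a replicate block or with the title number series blocked on. The same held without any single control or without JunBΔep replicate 1, so the muscle calls were lost there.

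Macrophage markers (10 of 10 found) summed to 271 to 454 FPKM in the controls and 128 to 451.5 FPKM in JunBΔep, T cell markers (10 of 10) to 22.9 to 49.4 and 21.9 to 35.6 FPKM, and dendritic cell markers (8 of 8) to 30.1 to 44.6 and 12.7 to 29.9 FPKM. B cell markers (8 of 8) summed to 4.06 to 10.7 and 3.37 to 7.31 FPKM, fibroblast markers (8 of 8) to 1058 to 2684 and 739 to 1627 FPKM, and endothelial markers (8 of 8) to 104 to 203 and 69.0 to 256 FPKM. The part of cell composition in the levels of the 10 genes was not tested. RNA integrity was given over all samples and not per mouse, and its part was not tested either.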

How the data were processed

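Poly(A) RNA from whole skin of 3 JunBΔep and 3 control mice was sequenced with a stranded kit. The authors checked reads with FastQC, aligned them with TopHat 2.0.10, Bowtie 1.0.0 and SAMtools 0.1.19 to mm9, allowing 2 mismatches and 20 multiple hits, and deposited FPKM per gene and mouse. Per the labels Cufflinks was also used, with no role given. Their own test used read counts, which were not analysed here, so the depth is unknown and no counting interval is given. Groups follow the genotype labels. Nothing says that libraries within a group came from separate litters or days, and p-values measure only the spread between these samples.

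From the deposited FPKM, log2(FPKM + 0.5) was compared with limma 3.58.1 (R 4.3.3), fitted without a block and with a trend in the variance, over 17021 genes averaging 0.1 FPKM or more. P-values were two-sided, adjusted by Benjamini-Hochberg and called below 0.05. On this scale fold changes understate the change of low genes. The procedure was tested on simulated data. Alternatives were pseudocounts of 0.1 and 1, other filters and scalings, limma settings, blocks, a threshold of 0.1 and each mouse left out. The members and gene lists were chosen with earlier results of these data known. Genes outside the 10 were named by role, or as the 5 nearest in profile to Nfkbiz. Zc3h12b, Ccl20, Il36a, S100a8, S100a9, Krt14, Tab3, Cxcl2, Il1f9, Ier3, Camp, Ngp, Ltf, Krt78 and Crnn were named after their values were seen. Positions were taken from the vM1 release of GENCODE (mm9). Python 3.11.15, pandas 2.3.3 and matplotlib 3.10.9 were used for tables and figures. No column was left unused.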

Additional observations from a re-analysis of the deposited data

How the results depend on the processing

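No member was called under any alternative, and at most 6 had an unadjusted p below 0.05 (limma, blocking on the number series of the titles, with 8.95% of all tested genes). The number of genes called over the whole table went from 235 to 0 with a replicate block, to 0 when the title number series was blocked on, and ranged from 0 to 254 when each mouse was left out in turn (135 without JunBΔep replicate 0, and 0 without control replicate 0, 1 or 2 or JunBΔep replicate 1). Deviations of samples with the same replicate number had correlations of 0.12, -0.228 and -0.426, and those of the other pairs ranged from -0.371 to 0.46. Deviations from a mean of 3 constrain each other, so these values cannot decide whether the numbers pair the mice. The numbers were not taken to pair them. Members higher with no overlap numbered 5 when values were rescaled to a sum of 1000000 (7.26% of all tested genes), and 3 to 7 with each mouse left out (7 without JunBΔep replicate 1, with 9.66% of all tested genes; the share was 7.72% to 19.4% over these 6 settings). Members at least 2-fold above the control mean numbered 5 in JunBΔep replicate 0 under rescaling to a sum of 1000000 (10.3%), and 3 in JunBΔep replicate 2 under that rescaling (5.37%) and under quantile normalization (4.89%). Blocking on that series turned the log2 fold changes of Relb and Nfkbie to 0.027 and 0.27. With each mouse left out, Relb ranged from -0.25 to 0.050, Nfkbie from -0.64 to 0.42, Nfkb2 from -0.016 to 0.65 and Tnip1 from -0.055 to 0.20, while the median of the 10 ranged from 0.12 without JunBΔep replicate 0 to 0.88 without JunBΔep replicate 1. The cause of these changes was not tested. With 3 mice a group and an unknown number of reads, precision is limited.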
